A study of Mus musculus with 75 samples.

Results

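The genes described here are the alpha chains H2-Aa and H2-Ea and the beta chains H2-Ab1 and H2-Eb1 of the mouse major histocompatibility complex (MHC) class II molecules, the invariant chain Cd74 and the class II transactivator Ciita. They were chosen by symbol, as the rows of these 6 names in the gene-level count tables, out of 21625 genes listed in both the chow and the high-fat diet (HFD) table, and all 6 were found in both. The study sequenced RNA from 75 libraries of epididymal fat (eWAT), inguinal fat (iWAT) and gastrocnemius muscle of mice that combine the nuclear (n) and mitochondrial (mt) genomes of C57BL6/J and C3H/HeN. The mitochondrial-nuclear exchange lines C3Hn:C57mt and C57n:C3Hmt carry the nuclear genome of 1 strain and the mitochondrial DNA of the other, and the wild types are C3Hn:C3Hmt and C57n:C57mt. All animals were weaned onto chow, and the HFD animals were switched at week 6 and kept on HFD to 12 or 13 weeks of age. The same end age is listed for the chow animals. The 28 HFD libraries cover eWAT, with 3 C3Hn:C57mt, 4 C3Hn:C3Hmt, 3 C57n:C3Hmt and 4 C57n:C57mt, and iWAT, with 3 libraries of each C3Hn line and 4 of each C57n line. The 47 chow libraries hold 4 of each genotype in each of the 3 tissues, apart from C3Hn:C3Hmt in eWAT with 3. Sex is not stated in the labels.

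MHC class II molecules present peptides from the endosome to CD4 T cells. Each is a pair of an alpha and a beta chain: H2-Aa and H2-Ab1 form I-A, and H2-Ea and H2-Eb1 form I-E. Cd74, on chr18 from 60963502 to 60972300 of mm9, plus strand, fills the groove of the new pair and guides it to the endosome. Ciita switches on the chain genes and Cd74 together, acting through the RFX and NF-Y complexes bound at the X and Y boxes of their promoters. Macrophages, dendritic cells and B cells of fat and muscle are among the known sources of these RNAs. C57BL/6 mice carry the b haplotype of the H2 complex, in which a deletion at the start of H2-Ea silences the gene and leaves no I-E on the cell surface, and C3H mice carry the k haplotype, which makes I-E.

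In the mm9 genome (annotation NCBIM37), H2-Ab1 lies on chr17 from 34400154 to 34406363 on the plus strand and H2-Aa from 34406276 to 34424772 on the minus strand, so their ends overlap. H2-Eb1 lies from 34442828 to 34453144 on the plus strand, and the H2-Ea locus from 34478897 to 34481589 on the minus strand, where the annotation names it a pseudogene. Ciita lies on chr16 from 10480237 to 10527657 on the plus strand.

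The RefSeq promoter table (GRCm38.p6, whose coordinates differ from those of mm9) matched 2 of the 6 genes. They are shown because both carry the paired boxes through which Ciita acts. The H2-Aa promoter is chr17:34287774-34288073 on the minus strand and the H2-Eb1 promoter chr17:34305617-34305916 on the plus strand. Capitals mark GCAACT, letters like the core of an X box, and CTGATTGG, a Y box.
H2-Aa: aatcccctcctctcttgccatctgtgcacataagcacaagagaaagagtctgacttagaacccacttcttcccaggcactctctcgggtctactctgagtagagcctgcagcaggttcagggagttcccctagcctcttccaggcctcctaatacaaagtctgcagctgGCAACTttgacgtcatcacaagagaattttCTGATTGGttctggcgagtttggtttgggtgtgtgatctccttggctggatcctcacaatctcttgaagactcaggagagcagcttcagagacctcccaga
H2-Eb1: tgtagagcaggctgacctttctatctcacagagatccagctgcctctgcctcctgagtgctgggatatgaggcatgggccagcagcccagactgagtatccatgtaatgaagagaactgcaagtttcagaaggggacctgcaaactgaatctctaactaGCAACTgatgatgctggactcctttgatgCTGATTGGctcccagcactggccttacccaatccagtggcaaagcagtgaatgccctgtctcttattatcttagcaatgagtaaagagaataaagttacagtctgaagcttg
The first capitals and the Y box are 24 bases apart in H2-Aa and 23 in H2-Eb1, and the Y box begins 51 bases before the gene start in H2-Aa and 62 before it in H2-Eb1. Searched on both strands, GCAACT occurred in 10.895% and CTGATTGG in 4.097% of the 32851 promoters of the table. The ordered pair with 10 to 40 bases between occurred in 9 of them (0.0274%). The letters and the spacing were chosen after these sequences had been read.

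The libraries held 15.8 to 31.5 M gene counts (M, mega; median 22.1 M). Levels are given as CPM, the counts per M gene counts of the library, and differences as log2 fold changes ± SE from edgeR's quasi-likelihood fit, called at an adjusted p under 0.05. Replicates carry different animal numbers. Of the 30 iWAT libraries, 15 had B cell markers (10 genes, Cd79a among them) summing to more than 100 CPM, the nearest sums on either side being 120.9 and 71.27 CPM. They were 2 of 6 C3Hn and 2 of 8 C57n libraries on HFD, and 5 of 8 C3Hn and 6 of 8 C57n libraries on chow. The highest sum, 2795 CPM, belonged to C3Hn:C3Hmt HFD iWAT replicate 3, the 1 library of its sequencing run. Of the 29 eWAT libraries, 6 had epididymis epithelium markers above 1000 CPM, with a highest sum of 18347 CPM and no other library above 125 CPM. Sequencing runs and lanes are taken here from codes in the library titles, which do not name them as such. Chow libraries share 1 sequencing run and HFD libraries lie in 3 others, and on chow the nuclear genome followed the sequencing lane apart from 1 eWAT library, so these cannot be told apart. The rate of aligned bases that differ from the reference was higher with C3Hn in each tissue and run that held both nuclear genomes, at a median of 0.006262 in C3Hn against 0.002788 in C57n muscle, for example. In the alignment to a C57BL/6 reference, fewer reads placed and less RNA therefore cannot be told apart for genes whose alleles differ between the strains.

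H2-Ea RNA was present in all 36 C3Hn libraries and at or near 0 in all 39 C57n libraries. In eWAT on HFD, H2-Ea measured 207, 142 and 105 CPM in C3Hn:C57mt and 80.9, 192, 326 and 161 CPM in C3Hn:C3Hmt, against at most 0.120 CPM in any C57n library. In eWAT on chow it measured 201, 57.04, 116 and 194 CPM in C3Hn:C57mt and 40.3, 170 and 67.0 CPM in C3Hn:C3Hmt, against at most 0.0796 CPM in C57n. No C57n value came near a C3Hn value in either diet. Of all genes with a mean of at least 1 CPM, 5.47% did not overlap between the nuclear genomes in eWAT on HFD and 2.13% in eWAT on chow.

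In iWAT on HFD, H2-Ea measured 117, 239 and 103 CPM in C3Hn:C57mt and 58.8, 74.6 and 650 CPM in C3Hn:C3Hmt, against at most 0.121 CPM in C57n. The value of 650 CPM belonged to the library with the most B cell RNA. The nuclear genomes did not overlap, as for 4.63% of all genes in iWAT on HFD and 4.30% in iWAT on chow. In iWAT on chow it measured 190, 66.8, 202 and 159 CPM in C3Hn:C57mt and 106, 49.3, 113 and 70.4 CPM in C3Hn:C3Hmt, against at most 0.0470 CPM in C57n. Muscle was lower throughout, at 4.65, 2.54, 2.24 and 4.504 CPM in C3Hn:C57mt and 4.98, 5.27, 3.08 and 5.13 CPM in C3Hn:C3Hmt, with no count in any of the 8 C57n libraries.

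**Figure D1:**
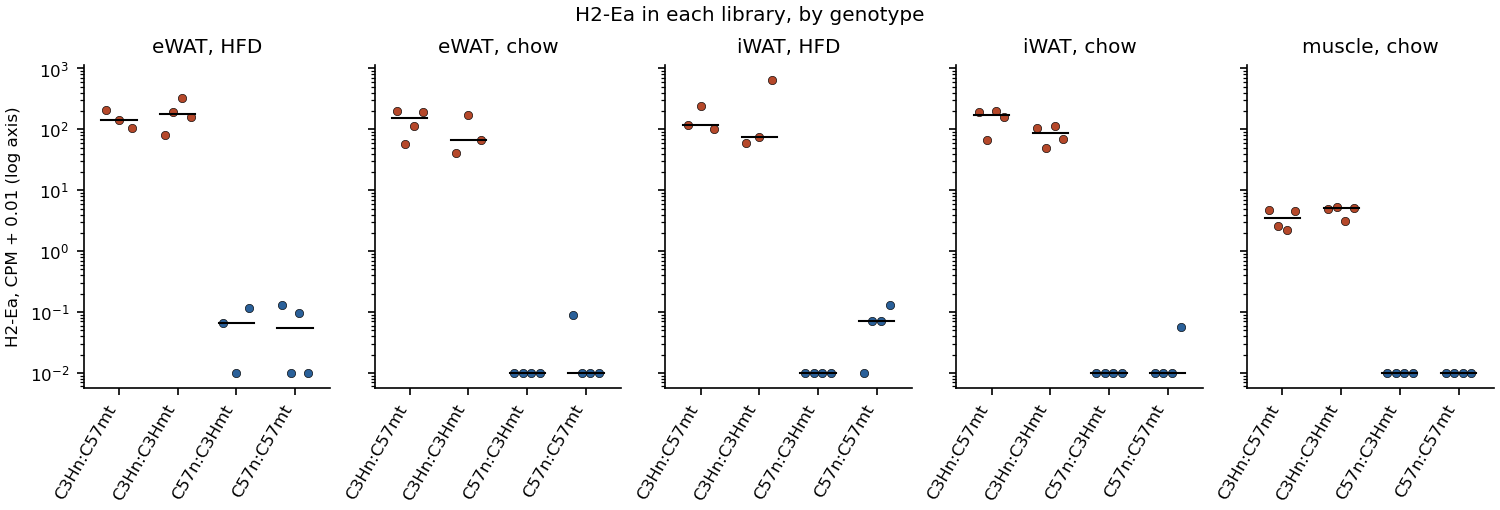
H2-Ea in each library as CPM plus 0.01 on a log axis, by tissue, diet and genotype, with a bar at each group's median. The 36 C3Hn libraries lie between 2.24 and 650 CPM and the 39 C57n libraries at or below 0.121 CPM.

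Summed over libraries, H2-Ea had 23853 counts in C3Hn and 7 in C57n eWAT on HFD, a depth-corrected ratio of 3323 with a 95% counting interval of 1612 to 8265. On chow, eWAT had 20070 counts in C3Hn and 2 in C57n, a ratio of 12863 (3560 to 106218). In iWAT the counts were 21903 in C3Hn and 4 in C57n on HFD, a ratio of 7751 (3027 to 28450), and 22013 in C3Hn and 1 in C57n on chow, a ratio of 21777 (3908 to 860166). The intervals cover counting error only, and the ratios of the 4 fat sets had overlapping intervals. In muscle, 753 counts in C3Hn and 0 in C57n made H2-Ea at least 266-fold higher with C3Hn, against a floor of 3 counts over the group. Of the 39 C57n libraries 30 had no H2-Ea count, and the other 9 had at most 2. H2-Ea entered the fits through its C3Hn counts alone, so no test of it between the nuclear genomes is given. Calls there, and in contrasts that draw on C57n groups, are counted over the other 5 genes unless H2-Ea is said to be included. Within C3Hn, H2-Ea made up 20.8 to 24% of the alpha-chain counts (H2-Ea plus H2-Aa, not corrected for length) in eWAT on HFD, 18.0 to 21.1% in eWAT on chow, 18.3 to 24.8% in iWAT on HFD, 18.1 to 22.5% in iWAT on chow and 12.7 to 21.5% in muscle.

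The other chains were lower with the C3Hn nuclear genome in muscle. H2-Aa, the I-A alpha chain, had a lowest, median and highest level of 12.9, 17.4 and 23.1 CPM in C3Hn muscle, against 25.9, 32.0 and 39.9 CPM in C57n. H2-Ab1, its beta partner, had 7.50, 9.82 and 12.9 CPM in C3Hn, against 21.3, 26.5 and 30.1 CPM in C57n. H2-Eb1, the I-E beta chain, had 8.83, 11.7 and 16.7 CPM in C3Hn, against 24.02, 27.3 and 34.6 CPM in C57n. For none of the 3 chains did the 8 C3Hn libraries overlap the 8 C57n libraries, as for 14.1% of all genes with a mean of at least 1 CPM. The log2 fold change was -0.98 ± 0.12 for H2-Aa, -1.46 ± 0.10 for H2-Ab1 and -1.27 ± 0.11 for H2-Eb1 (edgeR adjusted p of 5.03e-06, 7.24e-09 and 1.21e-07).

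Cd74 fell less in muscle, with 39.9, 51.9 and 70.9 CPM as lowest, median and highest in C3Hn against 59.6, 83.4 and 102 CPM in C57n and some overlap (-0.69 ± 0.11, edgeR adjusted p = 1.62e-04). Ciita was near the limit of detection there, at 0.196 to 0.596 CPM in C3Hn and 0.202 to 0.718 CPM in C57n, and did not pass (-0.52 ± 0.28, edgeR adjusted p = 0.174). In all, 4 of the 5 genes other than H2-Ea were called in muscle, all 4 lower, where 33.6% of all genes tested were called in either direction. In such whole-tissue RNA, fewer antigen-presenting cells and less RNA per cell cannot be told apart. Macrophage markers summed to 61.0 to 124 CPM in C3Hn and 65.7 to 112 CPM in C57n muscle, and dendritic cell markers to 8.28 to 15.9 CPM in C3Hn and 8.98 to 14.4 CPM in C57n, with no marker of the macrophage list at 0. Their part in the result was not tested.

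In iWAT on chow the same 3 chains were lower with C3Hn. H2-Aa had 219, 379 and 801 CPM as lowest, median and highest in C3Hn, against 530, 947 and 1309 CPM in C57n (-1.10 ± 0.32, edgeR adjusted p = 0.0255). H2-Ab1 had 115, 193 and 395 CPM in C3Hn, against 389, 636 and 877 CPM in C57n (-1.51 ± 0.31, edgeR adjusted p = 0.00163). H2-Eb1 had 128, 265 and 564 CPM in C3Hn, against 458, 778 and 1012 CPM in C57n (-1.39 ± 0.36, edgeR adjusted p = 0.0105). The groups overlapped for each chain. Cd74 (-0.83 ± 0.34, edgeR adjusted p = 0.118) and Ciita (-0.84 ± 0.48, edgeR adjusted p = 0.287) did not pass, so that 3 of the 5 genes other than H2-Ea were called, beside 11.7% of all genes. Cd74 passed without C3Hn:C3Hmt HFD iWAT replicate 3, which shares the fit (edgeR adjusted p = 0.00983). B cell markers summed to 2.19 to 603 CPM in C3Hn and 17.2 to 1258 CPM in C57n. Without the libraries above 100 CPM, only 3 C3Hn and 2 C57n libraries were left on chow, so effect sizes alone are given. They were -1.09 ± 0.33 for H2-Aa, -1.57 ± 0.33 for H2-Ab1 and -1.70 ± 0.31 for H2-Eb1. With all libraries and the mean of the B cell markers as a covariate, H2-Aa was at -0.75 ± 0.21, H2-Ab1 at -1.20 ± 0.22 and H2-Eb1 at -1.06 ± 0.22. All 3 passed there (edgeR adjusted p of 0.0202, 4.10e-04 and 0.00156). The H2-Aa call of the main fit was lost without C3Hn:C57mt chow iWAT replicate 2, C3Hn:C3Hmt chow iWAT replicate 2 or C57n:C57mt chow iWAT replicate 4, with an edgeR adjusted p of at most 0.0619.

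In iWAT on HFD the result turned on 1 library. With all 14 libraries, 0 of the 5 genes other than H2-Ea were called by edgeR or DESeq2 (1 with an unadjusted p under 0.05), beside 16.3% of all genes, and the log2 fold change was -0.34 ± 0.35 for H2-Aa, -0.79 ± 0.34 for H2-Ab1, -0.55 ± 0.38 for H2-Eb1, 0.64 ± 0.52 for Ciita and 0.05 ± 0.36 for Cd74. C3Hn:C3Hmt replicate 3, the library with the most B cell RNA, held the highest value of the set for each of these 5 genes, with 2239 CPM of H2-Aa, 986 of H2-Ab1, 1480 of H2-Eb1, 48.1 of Ciita and 5427 of Cd74. The other 5 C3Hn libraries had 251 to 724 CPM of H2-Aa, against 451 to 1081 CPM in the 8 C57n libraries. Without that library alone, H2-Aa reached -1.13, H2-Ab1 -1.57, H2-Eb1 -1.49 and Cd74 -0.80, and all 4 passed (edgeR adjusted p of 0.00322, 5.17e-05, 4.03e-04 and 0.0398), beside 15.4% of all genes.

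Without all iWAT libraries above 100 CPM of B cell markers, H2-Aa had 251 to 498 CPM in the 4 C3Hn libraries left, against 451 to 1022 CPM in the 6 C57n libraries. The log2 fold change was then -1.18 ± 0.24 for H2-Aa, -1.63 ± 0.24 for H2-Ab1, -1.60 ± 0.22 for H2-Eb1 and -0.83 ± 0.20 for Cd74 (edgeR adjusted p of 0.0135, 0.00273, 0.00204 and 0.0259), and 4 of the 5 genes other than H2-Ea were called beside 10.8% of all genes. Ciita was at 0.14 ± 0.33. With sequencing run as a covariate, which takes out the 1 library of its own run, 3 of the 5 were called beside 16.9% of all genes, at -1.12 ± 0.27 for H2-Aa, -1.56 ± 0.25 for H2-Ab1 and -1.49 ± 0.29 for H2-Eb1.

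In eWAT the chains did not differ past the threshold. On chow the log2 fold change was 0.23 ± 0.38 for H2-Aa, -0.12 ± 0.37 for H2-Ab1, -0.36 ± 0.35 for H2-Eb1, 0.50 ± 0.33 for Ciita and 0.49 ± 0.36 for Cd74, and 0 of these 5 genes were called by edgeR or DESeq2 (0 with an unadjusted p under 0.05), where 15.1% of all genes were. On HFD it was -0.46 ± 0.39 for H2-Aa, -0.93 ± 0.38 for H2-Ab1 (edgeR adjusted p = 0.114), -1.04 ± 0.37 for H2-Eb1 (edgeR adjusted p = 0.0647), 0.28 ± 0.34 for Ciita and -0.24 ± 0.38 for Cd74, with 0 of the 5 called by edgeR, 1 by DESeq2 and 2 at an unadjusted p under 0.05, beside 13.2% of all genes. H2-Eb1 had 155, 272 and 550 CPM as lowest, median and highest in C3Hn, against 323, 707.8 and 875 CPM in C57n, and the groups overlapped. Without the libraries with epithelial RNA, H2-Eb1 passed (-0.92 ± 0.31, edgeR adjusted p = 0.0311), as it did in DESeq2 (adjusted p = 0.0216), while 29.5% of all genes were then called. Macrophage markers summed to 1132 to 9102 CPM (median 3931) in C3Hn and 1323 to 3341 CPM (median 2294) in C57n eWAT on HFD. On chow they summed to 477 to 3059 CPM (median 2435) in C3Hn and 421 to 1235 CPM (median 946) in C57n. Dendritic cell markers summed to 142 to 805 CPM (median 498) in C3Hn and 90.6 to 251 CPM (median 158) in C57n on HFD. On chow these summed to 60.9 to 398 CPM (median 236) in C3Hn and 46.1 to 115 CPM (median 91.2) in C57n. Their part in the result was not tested.

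**Figure D2:**
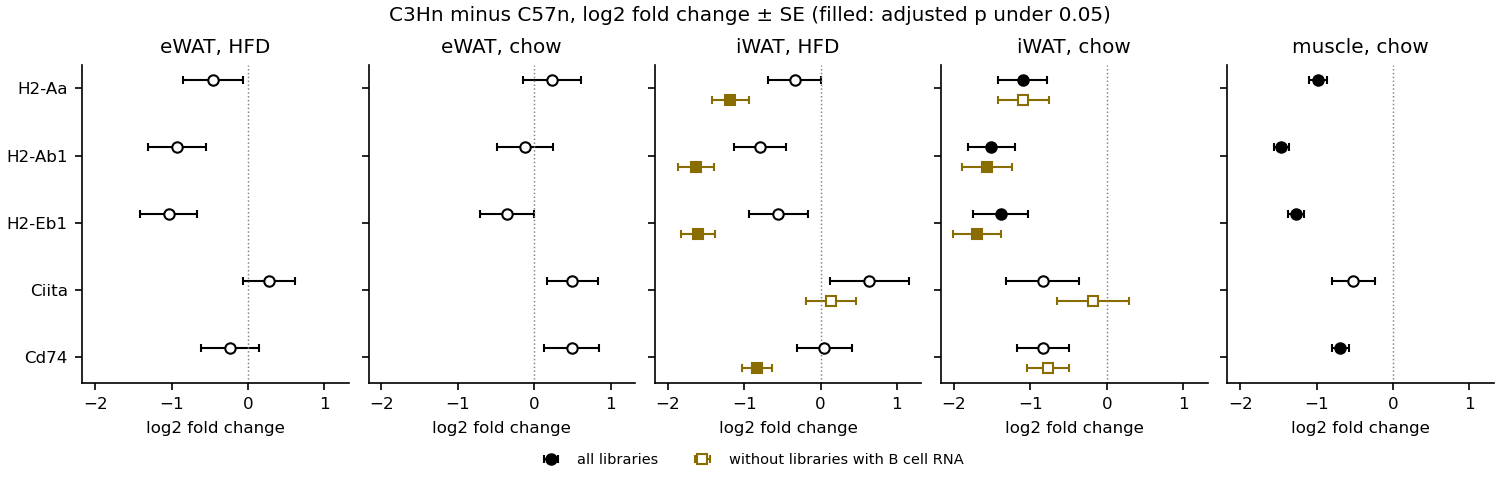
C3Hn minus C57n log2 fold change with its SE for H2-Aa, H2-Ab1, H2-Eb1, Ciita and Cd74 in each tissue and diet, from all libraries (circles) and, in iWAT, without the libraries with B cell RNA (squares), filled where the adjusted p is under 0.05. H2-Ab1 and H2-Eb1 lie between -1.27 and -1.70 in muscle, in iWAT on chow and in iWAT on HFD without those libraries. The squares in iWAT on chow rest on 3 C3Hn and 2 C57n libraries.

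Marker sums of antigen-presenting cells varied between libraries, so each chain was also set against Cd74 of the same library, as the log2 ratio of counts with 0.5 added to each. This comparison was chosen after the levels had been seen. On this scale H2-Ab1 and H2-Eb1 were lower with C3Hn in all 5 sets with no overlap between the nuclear genomes. In eWAT on HFD the H2-Ab1 ratio ran from -2.30 to -2.09 in C3Hn and from -1.57 to -1.34 in C57n, and the H2-Eb1 ratio from -2.21 to -2.02 in C3Hn and from -1.46 to -1.24 in C57n. In iWAT on HFD, with the library of most B cell RNA included, H2-Ab1 ran from -2.46 to -2.20 in C3Hn and from -1.81 to -1.34 in C57n. The C3Hn minus C57n difference of H2-Ab1 was -0.70 in eWAT on HFD, -0.61 in eWAT on chow, -0.79 in iWAT on HFD, -0.70 in iWAT on chow and -0.77 in muscle. For H2-Eb1 it was -0.79, -0.79, -0.65, -0.61 and -0.59 in the same sets.

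H2-Aa differed less, by -0.26 in eWAT on HFD, -0.25 in eWAT on chow, -0.34 in iWAT on HFD, -0.28 in iWAT on chow and -0.30 in muscle, with overlap in eWAT on HFD and in iWAT on chow. All 15 of these chain tests passed, with a two-sided exact permutation p of 1.55e-04 to 0.00466 and an adjusted p over all 20 ratio tests of 3.89e-04 to 0.00622, and 13 of the 15 had the smallest p the permutations can give. Ciita over Cd74 did not pass in any of its 5 tests, the lowest adjusted permutation p being 0.0562 in iWAT on HFD with a difference of 0.84. There it passed without the libraries with B cell RNA (1.06, adjusted permutation p = 0.0366). Without replicate 3 of each group it passed in iWAT on HFD (1.19, 0.028) and in eWAT on HFD (0.83, 0.0106). Without replicate 1, 2 or 4 it passed in neither. As background, of all genes with a mean of at least 1 CPM, the ratio to Cd74 did not overlap between the nuclear genomes for 3.35% in eWAT on HFD, 0.932% in eWAT on chow, 1.55% in iWAT on HFD, 1.86% in iWAT on chow and 14.9% in muscle. Within the sequencing run of 5 C3Hn and 3 C57n eWAT libraries on HFD, the difference was -0.30 for H2-Aa, -0.73 for H2-Ab1 and -0.85 for H2-Eb1. In the other run, with 2 C3Hn and 4 C57n libraries, it was -0.26, -0.71 and -0.77 in the same order of genes.

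**Figure D3:**
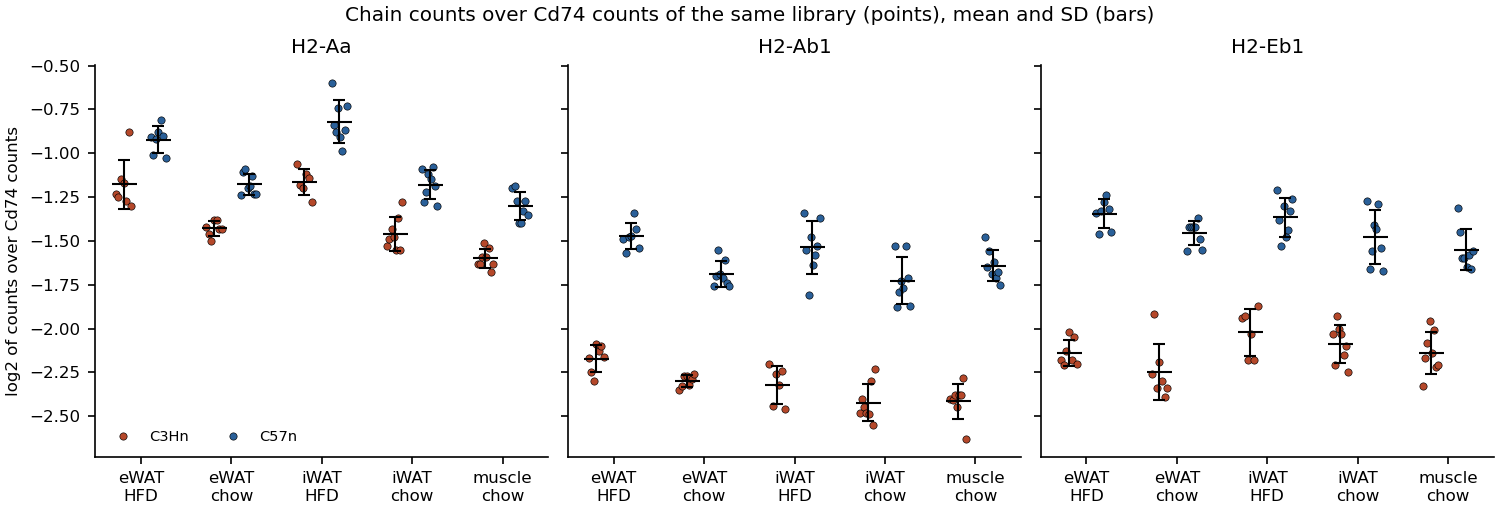
Log2 ratio of H2-Aa, H2-Ab1 and H2-Eb1 counts to Cd74 counts of the same library, by tissue and diet, with C3Hn left of C57n and bars for mean and SD. The C3Hn libraries lie below all C57n libraries of the set for H2-Ab1 and H2-Eb1 in all 5 sets, and for H2-Aa in 3 of the 5.

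No stretch of 50 bases is shared between the chain genes of the reference, but reads of the C3H alleles may still be lost or placed in a neighbour, so the rows were also summed by chain. The alpha sum, H2-Aa plus H2-Ea, fell in muscle (-0.69, edgeR adjusted p = 2.23e-04) and did not pass in iWAT on chow (-0.77, edgeR adjusted p = 0.137). In eWAT it was -0.10 on HFD and 0.54 on chow (edgeR adjusted p of 0.910 and 0.331), and in iWAT on HFD, with all libraries, 0.02 (edgeR adjusted p = 0.983). The beta sum, H2-Ab1 plus H2-Eb1 plus H2-Eb2, fell in muscle (-1.36, edgeR adjusted p = 2.01e-08) and in iWAT on chow (-1.45, edgeR adjusted p = 0.00504) and did not pass in eWAT on HFD (-0.99, edgeR adjusted p = 0.0872) or on chow (-0.25, edgeR adjusted p = 0.667), nor in iWAT on HFD with all libraries (-0.65, edgeR adjusted p = 0.225). In muscle the alpha sum and Cd74 were both at -0.69 and the beta sum was further from 0. The difference between the alpha and beta sums was not itself tested.

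Ciita was higher on HFD than on chow in eWAT, a contrast in which diet and sequencing run cannot be told apart. Over the 4 genotypes Ciita had 8.32, 18.5 and 41.0 CPM as lowest, median and highest on HFD, against 3.09, 9.86 and 25.8 CPM on chow, with overlapping groups. The mean log2 fold change over genotypes was 0.92 ± 0.24 (edgeR adjusted p = 0.00392), and 0.71 ± 0.21 without the libraries with epithelial RNA (edgeR adjusted p = 0.0107). By genotype, Ciita on HFD was at 41.0, 18.4 and 18.7 CPM in C3Hn:C57mt, at 13.5, 36.6, 8.32 and 19.8 CPM in C3Hn:C3Hmt, at 12.1, 9.72 and 17.3 CPM in C57n:C3Hmt, and at 21.7, 14.6, 24.1 and 27.7 CPM in C57n:C57mt. On chow it was at 25.8, 8.05, 10.4 and 22.5 CPM in C3Hn:C57mt, at 7.13, 10.5 and 6.16 CPM in C3Hn:C3Hmt, at 4.33, 8.50, 13.0 and 3.09 CPM in C57n:C3Hmt, and at 10.6, 9.86, 8.06 and 9.86 CPM in C57n:C57mt. In C57n:C57mt alone did the HFD and chow values not overlap, as for 27.2% of all genes with a mean of at least 1 CPM in that genotype.

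Ciita was the 1 of the 5 genes other than H2-Ea called for diet in eWAT, where 41.3% of all genes were called. H2-Aa was at 0.58 ± 0.27 (edgeR adjusted p = 0.0914), H2-Ab1 at 0.48 ± 0.26 (0.148), H2-Eb1 at 0.44 ± 0.25 (0.160) and Cd74 at 0.32 ± 0.26 (0.337). H2-Aa had 281, 700 and 1238 CPM on HFD, against 151, 456 and 911 CPM on chow. With each library's trend of counts on G+C content and gene length removed, 4 genes were called, with 32.9% of all genes: H2-Ab1 at 0.73 ± 0.24, H2-Eb1 at 0.72 ± 0.22, Ciita at 0.95 ± 0.22 and Cd74 at 0.66 ± 0.23. Without the libraries with epithelial RNA the values were smaller for H2-Aa (0.39 ± 0.25), H2-Ab1 (0.29 ± 0.24), H2-Eb1 (0.26 ± 0.23) and Cd74 (0.13 ± 0.23). The edgeR adjusted p of these genes was then at least 0.212. Macrophage markers summed to 1132 to 9102 CPM on HFD and 421 to 3059 CPM on chow in eWAT; their part in the Ciita result was not tested, and diet and sequencing run cannot be told apart.

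In iWAT none of the 5 genes other than H2-Ea was called for diet by edgeR or DESeq2. None of them had an unadjusted p under 0.05, while 37.6% of all genes were called. The log2 fold change was 0.17 ± 0.24 for H2-Aa, -0.01 ± 0.23 for H2-Ab1, -0.03 ± 0.26 for H2-Eb1, -0.63 ± 0.36 for Ciita and -0.16 ± 0.25 for Cd74. Without C3Hn:C3Hmt HFD iWAT replicate 3, 4 genes passed as lower on HFD, at -0.43 for H2-Ab1, -0.54 for H2-Eb1, -0.96 for Ciita and -0.62 for Cd74, while 49.8% of all genes were called. Without all libraries with B cell RNA, none passed or had an unadjusted p under 0.05 among the genes other than H2-Ea, 7.90% of all genes were called, and the values were 0.35 ± 0.21 for H2-Aa, 0.13 ± 0.20 for H2-Ab1, 0.11 ± 0.19 for H2-Eb1, 0.40 ± 0.29 for Ciita and 0.05 ± 0.17 for Cd74. B cell markers had a median sum of 33.0 CPM on HFD and 465 CPM on chow.

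**Figure D4:**
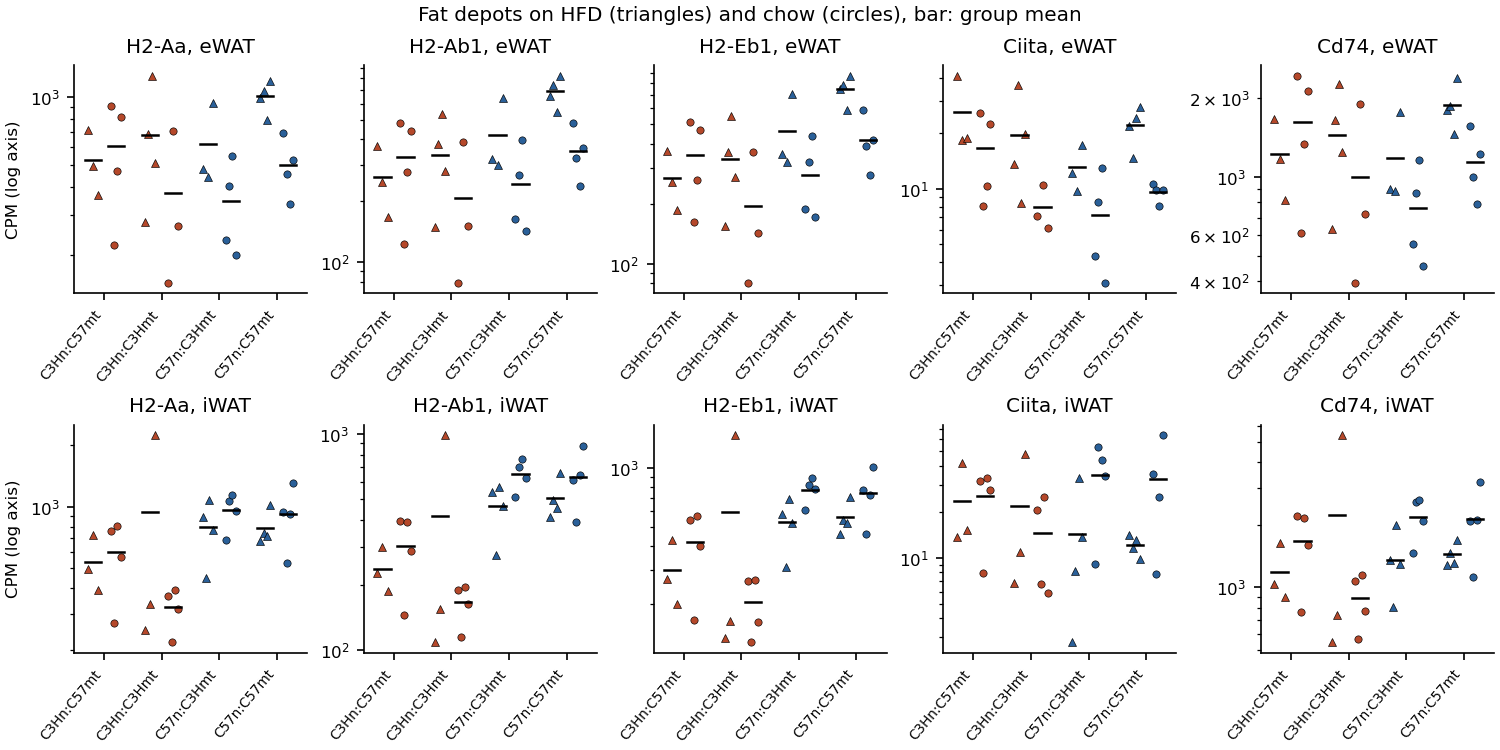
CPM of the chains, Ciita and Cd74 on a log axis in each eWAT (top) and iWAT (bottom) library, with HFD (triangles) left of chow (circles) for each genotype and a bar at the group mean. Ciita in eWAT has a median of 18.5 CPM on HFD and 9.86 CPM on chow, and in iWAT 1 C3Hn:C3Hmt library on HFD stands above its group in each panel.

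Within single genotypes and leaving out H2-Ea, no member was called for diet in 40 tests over both depots, where 10.3% of all gene tests passed. Of the 40, 6 had an unadjusted p under 0.05, and DESeq2 called 2. The response to diet did not differ between the nuclear genomes past the threshold for any of the 5 genes other than H2-Ea. In eWAT 0% of all genes were called and none of the 5 had an unadjusted p under 0.05. In iWAT 0.717% were called and 1 member had. That member was Ciita in iWAT, at 1.48 ± 0.71 (edgeR adjusted p = 0.175), and at 0.33 ± 0.57 without the libraries with B cell RNA. DESeq2 called none in either depot.

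The mitochondrial genome was compared with the nuclear genome held, as exchange line minus wild type. Leaving out H2-Ea, no member was called in 50 tests over 10 such comparisons, where 0.00181% of all gene tests were called. Of the 50, 4 had an unadjusted p under 0.05, DESeq2 called none, and the lowest edgeR adjusted p was 0.449. Their log2 fold changes ran from -1.03 to 0.93, and differences within these bounds did not pass with 3 or 4 animals a group. The response to diet by mitochondrial genome, again without H2-Ea, was not called in any of 20 tests, beside 0% of all gene tests. Of the 20, 4 had an unadjusted p under 0.05, DESeq2 called none, and the lowest edgeR adjusted p was 0.706. H2-Ea followed the nuclear genome in each exchange line: C57n:C3Hmt had at most 0.106 CPM in any library, and C3Hn:C57mt had 2.24 CPM or more.

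Muscle held the least of these RNAs. On chow over both nuclear genomes, H2-Aa had 12.9, 24.5 and 39.9 CPM as lowest, median and highest in muscle, against 151, 456 and 911 CPM in eWAT. Cd74 had 39.9, 69.0 and 102 CPM in muscle, against 394, 997 and 2443 CPM in eWAT, and Ciita 0.196, 0.423 and 0.718 CPM in muscle, against 3.09, 9.86 and 25.8 CPM in eWAT. The tissues did not overlap for these genes, nor for H2-Ab1 or H2-Eb1, as for 59.8% of all genes with a mean of at least 1 CPM. The log2 fold change was -2.94 ± 0.21 for H2-Aa, -2.83 ± 0.20 for H2-Ab1, -2.76 ± 0.20 for H2-Eb1, -3.28 ± 0.31 for Ciita and -2.78 ± 0.21 for Cd74, with edgeR adjusted p of at most 3.80e-12. The median over all genes tested was -0.51 on this scale, and 82.6% of genes were called, so calls of all 5 are near the background share. H2-Ea is not counted, since this contrast averages in C57n groups at or near 0 counts. Within C3Hn it was at 2.24 to 5.27 CPM in muscle and 40.3 to 201 CPM in eWAT on chow. The folds are after TMM normalisation and are smaller than the ratios of the plain CPM values.

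Between the fat depots on chow, H2-Eb1 and Ciita were the 2 genes called, both lower in eWAT, where 33.3% of all genes were called. Ciita had 3.09, 9.86 and 25.8 CPM as lowest, median and highest in eWAT, against 5.83, 26.5 and 63.8 CPM in iWAT (-1.42 ± 0.31, edgeR adjusted p = 3.92e-04). H2-Eb1 had 80.2, 325 and 590 CPM in eWAT, against 128, 553 and 1012 CPM in iWAT (-0.69 ± 0.26, edgeR adjusted p = 0.0318). With the animal as a replicate block neither passed, at -1.44 ± 0.49 for Ciita (edgeR adjusted p = 0.0558) and -0.77 ± 0.47 for H2-Eb1 (0.274), while 16.2% of all genes were called. Without the libraries with B cell RNA the differences were 0.28 ± 0.34 for Ciita and 0.01 ± 0.33 for H2-Eb1, and none of the 6 was called, beside 3.66% of all genes. Only iWAT libraries were left out in this way. C57n:C57mt chow eWAT replicate 3, with a B cell marker sum of 135 CPM, was kept. On HFD none of the 5 genes other than H2-Ea was called between depots by edgeR or DESeq2. None of them had an unadjusted p under 0.05, and 23.0% of all genes were called. There, without the libraries with B cell RNA, Ciita passed as higher in eWAT (0.83 ± 0.27, edgeR adjusted p = 0.0314), beside 14.2% of all genes.

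In iWAT the class II genes moved with B cell RNA, Ciita most closely. In C3Hn iWAT, Ciita was at 20.6 to 48.1 CPM in the 7 libraries above 100 CPM of B cell markers and at 5.83 to 15.3 CPM in the 7 below. In C57n iWAT it was at 14.1 to 63.8 CPM in the 8 libraries above and at 2.79 to 13.6 CPM in the 8 below. Across libraries, the Pearson correlation of log2 Ciita with the log2 B cell sum was 0.93 in C3Hn (14 libraries) and 0.78 in C57n (16 libraries). In C3Hn it was 0.88 for H2-Eb1, 0.87 for Cd74, 0.85 for H2-Ea, 0.81 for H2-Ab1 and 0.79 for H2-Aa, and in C57n 0.73 for Cd74, 0.63 for H2-Eb1, 0.62 for H2-Aa and 0.58 for H2-Ab1. The points share library depth and both diets. The library C57n:C3Hmt HFD iWAT replicate 1 had the lowest Ciita of all fat libraries, 2.79 CPM, beside 1354 CPM of Cd74.

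**Figure D5:**
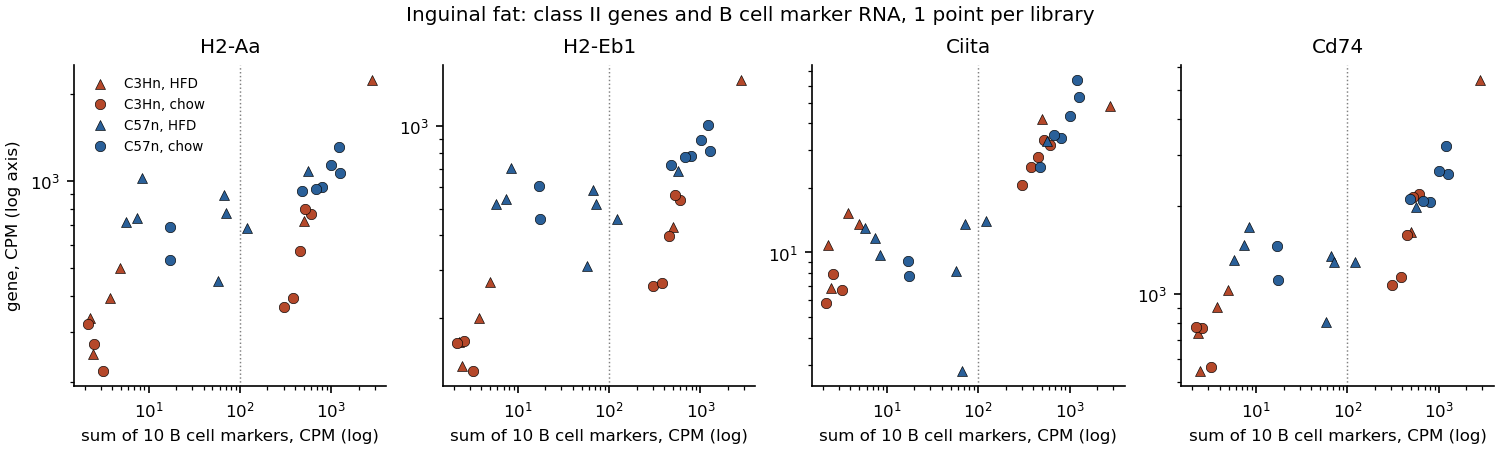
H2-Aa, H2-Eb1, Ciita and Cd74 (CPM, log axis) against the summed B cell markers (CPM, log axis) in the 30 iWAT libraries, by nuclear genome (colour) and diet (shape), with a dotted line at 100 CPM. Ciita lies between 2.79 and 15.3 CPM left of the line and between 14.1 and 63.8 CPM right of it.

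The transcript tables separate 2 forms of Cd74. The form NM_001042605 took 10.7 to 21.3% (median 17.1%) of Cd74 counts in the 15 iWAT libraries above 100 CPM of B cell markers and 20.3 to 26.7% (median 25.2%) in the 15 below. It took 21.4 to 29.9% in eWAT and 16.1 to 30.0% in muscle. The lowest share, 10.7%, was in C3Hn:C3Hmt HFD iWAT replicate 3, the library with the most B cell RNA. The median share in C3Hn iWAT on HFD was 24.2%.

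Other genes of the pathway did not all follow the chains. Of 13 genes of class II peptide loading and processing, 6 were higher and 0 lower with C3Hn in eWAT on HFD, beside 13.2% of all genes called in either direction, with a median log2 fold change of 0.85 against 0.05 over all genes. They include the cysteine protease Ctss, which trims Cd74, at 1260 ± 643 CPM in C3Hn and 327 ± 178 CPM in C57n (SD, n = 7 each; 2.00 ± 0.53, edgeR adjusted p = 0.0128). The thiol reductase Ifi30 was at 187 ± 94.2 CPM in C3Hn and 59.3 ± 26.3 CPM in C57n, and the protease Lgmn at 520 ± 280 CPM in C3Hn and 198 ± 68.0 CPM in C57n. Without the libraries with epithelial RNA 8 of the 13 were higher, beside 29.5% of all genes called. On chow in eWAT 5 were higher and 0 lower, among them Ctsl, beside 15.1% of all genes, and 6 and 0 without those libraries, beside 15.3%. The macrophage marker sums given above were higher at the top of the C3Hn range in the same sets, and their part in these counts was not tested.

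H2-DMa and H2-DMb1 form the DM complex, which exchanges the Cd74 fragment for peptide, and both were lower with C3Hn in iWAT on chow. H2-DMa was at 33.1 ± 16.5 CPM in C3Hn and 71.0 ± 21.4 CPM in C57n (SD, n = 8 each; -1.17 ± 0.35, edgeR adjusted p = 0.0262), and H2-DMb1 at -0.91 ± 0.28 (edgeR adjusted p = 0.0320). In that set 2 of the 13 genes were higher and 2 lower, beside 11.7% of all genes called, and 1 and 0 without the libraries with B cell RNA, beside 1.88%. In iWAT on HFD 4 were higher and 0 lower, beside 16.3% of all genes, and 4 and 5 without those libraries, beside 10.8%. H2-DMb2, a near copy of H2-DMb1, was at 40.7 ± 18.2 CPM in C3Hn and 3.78 ± 0.470 CPM in C57n eWAT on HFD (3.34 ± 0.52, edgeR adjusted p = 1.06e-04). In the reference 25.5% of the 50-base stretches of 1 of these 2 genes also occur in the other, so their separate values are uncertain. In muscle, 9 of the 13 could be tested, of which 3 were higher and 2 lower, beside 33.6% of all genes called, with H2-DMb1 at -1.54 ± 0.13 (edgeR adjusted p = 6.40e-08).

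Of 16 tested genes of class II transcription and interferon gamma signalling, 1 was higher and 0 lower with C3Hn in eWAT on HFD, 0 and 0 in eWAT on chow, 1 and 1 in iWAT on HFD, 1 and 1 in iWAT on chow and 3 and 1 in muscle. The shares of all genes called in these sets were 13.2%, 15.1%, 16.3%, 11.7% and 33.6% in the same order, so the counts were near or under the background in each set. Rfxank, a subunit of the RFX complex, was lower with C3Hn in iWAT on chow, at 14.1 ± 2.17 CPM in C3Hn and 25.2 ± 6.61 CPM in C57n (-0.86 ± 0.15, edgeR adjusted p = 1.67e-04). In muscle Rfx5, another RFX subunit, was higher, at 5.03 ± 0.717 CPM in C3Hn and 3.12 ± 0.392 CPM in C57n (0.59 ± 0.10, edgeR adjusted p = 1.97e-04), as was Nfyb of the NF-Y complex (0.81 ± 0.05, edgeR adjusted p = 1.40e-09). For HFD against chow in eWAT 7 of the 16 were higher and 3 lower, where 41.3% of all genes were called, with Nfya at 0.76 ± 0.12 and Rfxank at -0.55 ± 0.08 (edgeR adjusted p of 4.11e-05 and 2.81e-05). Of 8 genes of class II turnover and T cell contact, 3 were higher and 1 lower with HFD in eWAT, a count near the same background of 41.3%, including March1, a ligase that removes class II from the surface, at 15.5 ± 6.18 CPM on HFD and 5.41 ± 2.90 CPM on chow (SD, n = 14 and 15; 1.48 ± 0.23, edgeR adjusted p = 3.57e-05).

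Of the class I genes, H2-D1, a heavy chain gene in the same complex, was lower with C3Hn by -1.20 ± 0.14 in iWAT on HFD, -1.17 ± 0.13 in iWAT on chow and -1.12 ± 0.09 in muscle (edgeR adjusted p of 1.69e-06, 5.01e-07 and 3.60e-08). It was at 953 ± 179 CPM in C3Hn and 1977 ± 238 CPM in C57n iWAT on HFD (SD, n = 6 and 8). Class I rows were neither summed nor checked for shared stretches. For H2-D1, lost or misplaced reads of the C3H allele and less RNA therefore cannot be told apart. Counts of the whole class I list between the nuclear genomes were 2 higher and 1 lower of 9 tested in iWAT on HFD, 0 and 1 in iWAT on chow, 0 and 3 in muscle, 0 and 0 in eWAT on HFD and 3 and 0 in eWAT on chow. The shares of all genes called were 16.3% in iWAT on HFD, 11.7% in iWAT on chow and 33.6% in muscle, and the class I counts in iWAT on chow and in muscle were near them. In eWAT the shares were 13.2% on HFD and 15.1% on chow, and without the libraries with epithelial RNA the counts were 1 and 1 on HFD and 1 and 1 on chow, beside 29.5% and 15.3% of all genes.

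Over the 20 group means, the genes closest to each pattern were named by Pearson's r of log2 CPM among 12262 genes. For H2-Ea these were EG667977 (0.991), AK161769 (0.979), Lap1B (0.962), Hal (0.962) and AK220016 (0.957). Like H2-Ea they were high with C3Hn and low with C57n, EG667977 at 50.1 CPM in C3Hn and 0.150 CPM in C57n eWAT on chow. For Ciita they were Selplg (0.994), Lrmp, 5830482F20Rik, 1200013B08Rik and 2810048G17Rik (each 0.992). For the mean of H2-Aa, H2-Ab1, H2-Eb1 and Cd74 they were 9130211I03Rik (0.994), H2-DMb1 (0.994), H2-DMa (0.993), Abcg3 (0.987) and H2-D1 (0.984). Ciita itself correlated with that mean at 0.967 and H2-Ea at 0.033. The 20 means share tissues and diets, and genes are not independent of each other.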

How the data were processed

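The submitters' processing notes name RSEM, the mouse build mm9 and, for the authors' own tests, DESeq2 1.10.1. As deposited, gene-level and transcript-level values are expected counts without normalization. No source used here gives the annotation, mapper or strandedness, so the overlapping ends of H2-Aa and H2-Ab1 cannot be separated. Of the deposited quality tables, the shares of reads mapped to the transcriptome and to ribosomal RNA and the G+C content of aligned reads (each percent) were read. The mismatch rate (per the file headers, a fraction) was read as well.

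Here, expected counts of the 21625 shared genes were rounded. A model for each tissue held all of its groups (edgeR 4.0.16, R 4.3.3; quasi-likelihood F test, TMM, filterByExpr with a minimum count of 10, total of 15 and proportion of 70%), with joint fits for contrasts of tissues. p values were adjusted over all genes tested (Benjamini-Hochberg, two-sided) and come from edgeR unless another tool is named. CPM are counts over the library total of 15.8 to 31.5 M counts (M, mega). Ratios to Cd74 were tested by exact permutation over libraries. The scripts were tested on simulated counts. Alternatives were DESeq2 1.42.0, its size factors in edgeR, no count filter, summed chains, run and B cell covariates, a G+C and length offset, the animal as a block, and leaving out libraries. G+C content and length were known for 79.6% of genes and for the 6 members, so the offset was fitted on those genes and is void as a check over all genes.

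The members, gene lists and tests were chosen with earlier results of these data known. Members were not picked for naming by their p. Up to 4 list genes with the lowest p among those passing are named, and the 5 genes most like each pattern by correlation. The titles' animal numbers link both fat depots of 20 animals, and the deviations of the depots from their group means correlated at a median of 0.093 (0.00343 to 0.322; over 0.1 in 9 of 19). No 2 libraries held identical values.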

Additional observations from a re-analysis of the deposited data

Results flagged for a closer look

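The distance of the highest or lowest library from the rest of its group was tested 77 times, for members in groups of 4, and 3 values of 2 libraries stood out, which is no more than the about 1 in 20 that chance gives. H2-Aa was at 1022 CPM in C57n:C57mt HFD iWAT replicate 4, above the 683.8 to 741 CPM of the other 3 libraries. In muscle, C3Hn:C3Hmt chow replicate 3 was below the other 3 libraries of its group in H2-Ea, at 3.076 CPM against 4.984 to 5.269 CPM, and in H2-Aa, at 12.88 CPM against 21.49 to 23.14 CPM. The muscle result for H2-Aa passed without this library as well, as it did without each of the other 15.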

How the results depend on the processing

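Of the 1993 alternatives run for 85 member values, direction and side of the threshold were kept in 1467 that left out libraries one by one and in 382 others. The Cd74 difference of C3Hn and C57n in iWAT on HFD reversed without the libraries with B cell RNA, to -0.83, and ran from -0.80 to 0.32 when libraries were left out one by one. For eWAT minus iWAT on chow, H2-Eb1 reversed to 0.03 with the B cell covariate and 0.01 without those libraries, and Ciita reversed to 0.28 without them. The number of the 6 members called, H2-Ea included, for C3Hn minus C57n on HFD in eWAT was 2 with DESeq2, 2 with the G+C and length offset, 2 without the libraries with epithelial RNA and 1 to 3 leaving out libraries one by one. In iWAT on HFD it was 3 with the B cell covariate, 4 with run, 5 without the libraries with B cell RNA and 1 to 5 leaving out libraries. For HFD minus chow it was 2 with DESeq2, 4 with the offset and 1 to 4 leaving out libraries in eWAT. In iWAT it was 1 with the B cell covariate, 4 with run and 0 to 4 leaving out libraries. Each run holds 1 diet, so the run covariate does not adjust this contrast. In iWAT 4 were also called without C3Hn:C3Hmt HFD iWAT replicate 3, the 1 library of its run. Over the single genotypes the number called was 2 with DESeq2, 1 with the offset and 0 to 5 leaving out libraries. For eWAT minus iWAT on chow it was 0 with the B cell covariate, 0 with the animal as replicate block, 4 with run, 0 without the libraries with B cell RNA, 1 without those with epithelial RNA and 1 to 5 leaving out replicates, and on HFD 1 with the B cell covariate and 1 without the libraries with B cell RNA. The block was run for eWAT minus iWAT alone, where it changed no other call, and not for muscle minus eWAT. The causes were not tested. Depth limits H2-Ea in C57n and Ciita in muscle, where counts are near 0.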

Other observations

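Class II genes known from B cells were lower in eWAT than in iWAT on chow. H2-Oa and H2-Ob form the DO complex, which holds DM back in B cells, and H2-Eb2 is a further beta-chain gene beside H2-Eb1. In eWAT on chow, H2-Ob was at 3.78 ± 3.62 CPM, against 58.6 ± 52.2 CPM in iWAT (SD, n = 15 and 16; -3.98 ± 0.65, edgeR adjusted p = 8.95e-06). H2-Oa was at 1.33 ± 1.27 CPM in eWAT and 18.2 ± 14.4 CPM in iWAT (-3.79 ± 0.66), and H2-Eb2 at 0.293 ± 0.588 CPM in eWAT and 7.94 ± 8.43 CPM in iWAT (-4.79 ± 0.83). B cell markers summed to 2.75 to 135 CPM in eWAT and 2.19 to 1258 CPM in iWAT on chow, and their part in these differences was not tested.

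In 1 eWAT library the chains and Ciita went apart. C3Hn:C3Hmt HFD eWAT replicate 3 had the highest H2-Aa of all eWAT libraries, 1238 CPM, and the lowest Ciita of the HFD eWAT libraries, 8.32 CPM. Its mismatch rate of 0.010078 was the highest of all libraries. The G+C content of its aligned reads, 48.01%, was the lowest of the eWAT libraries. The part of library quality in these values was not tested. Without this library H2-Ab1 passed as lower with C3Hn in eWAT on HFD (edgeR adjusted p = 0.0392, against 0.114 with it).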
